A study of Caenorhabditis elegans with 2 samples.

Results

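The genes described here are the insulin signalling genes of Caenorhabditis elegans, given with the peaks of SAEG-2 in and just upstream of each. They are the forkhead transcription factor gene daf-16, the 14-3-3 genes ftt-2 and par-5, the insulin receptor gene daf-2, the kinase genes age-1, pdk-1, akt-1, akt-2 and sgk-1, and the lipid phosphatase gene daf-18. They were chosen by symbol in the Ensembl annotation of the WBcel235 genome and are 10 of 19973 protein-coding genes on the nuclear chromosomes. The 2 samples are biological replicates of 1 group, whole L4 larvae of strain RW12230, in which saeg-2 carries a TY1, EGFP and 3xFLAG tag inserted by CRISPR at its own locus on chromosome III. Larvae from bleached populations, starved at L1, were grown for 48 h, and sonicated chromatin of 200 to 800 bp was precipitated with an antibody against GFP. No second genotype or condition was analysed here, so the values describe where the tagged protein's peaks lay across the whole larva, where a strong peak in few cells and a weak one in many cannot be told apart.

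In this pathway DAF-2, an insulin-like receptor, activates the phosphoinositide 3-kinase AGE-1, whose lipid product recruits PDK-1, AKT-1 and AKT-2. DAF-18, a lipid phosphatase, removes that lipid. Phosphorylated DAF-16, a FOXO factor, is held out of the nucleus by 14-3-3 proteins such as FTT-2, and when signalling is low it enters the nucleus and acts on stress resistance, dauer arrest and lifespan genes. SAEG-2 is a nuclear protein that acts with SAEG-1 and HDA-2, the latter a histone deacetylase, in the pathway of the cGMP-dependent kinase EGL-4.

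Windows at ftt-2, pdk-1, par-5, daf-2 and sgk-1 are shown first, each a summit with 50 bp on either side, read 5′ to 3′ from the plus strand of the RefSeq copy of WBcel235. At ftt-2 the capitals mark an 11-bp run that both of its upstream windows hold, and which occurs 2 times in the whole genome, both strands counted, that is, in these windows alone.
ftt-2, stronger peak, chrX:11605901-11606001: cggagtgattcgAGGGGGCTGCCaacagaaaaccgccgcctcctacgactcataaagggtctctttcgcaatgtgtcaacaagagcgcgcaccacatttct
ftt-2, weaker peak, chrX:11606107-11606207: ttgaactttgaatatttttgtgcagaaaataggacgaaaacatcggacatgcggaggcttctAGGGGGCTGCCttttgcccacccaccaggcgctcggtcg
The next pair shows pdk-1, whose listed upstream window and strongest intronic window, the latter in the ranked lists only, share another 11-bp run, in capitals. That run stood in 13 of the 1145 windows around conservative summits, 1.14%, and occurs 1311 times in the genome.
pdk-1, upstream peak, chrX:1319884-1319984: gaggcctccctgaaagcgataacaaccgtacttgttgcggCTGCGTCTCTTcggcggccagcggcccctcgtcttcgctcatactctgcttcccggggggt
pdk-1, intronic peak, chrX:1323157-1323257: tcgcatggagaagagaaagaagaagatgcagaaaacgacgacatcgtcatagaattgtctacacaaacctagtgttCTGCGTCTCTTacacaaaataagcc
The window upstream of par-5 is shown because its peak was in the non-conservative list and not in the conservative one. Its capitals mark the only motif of those searched that the window held, GAGAGA.
par-5, upstream peak, chrIV:11822038-11822138: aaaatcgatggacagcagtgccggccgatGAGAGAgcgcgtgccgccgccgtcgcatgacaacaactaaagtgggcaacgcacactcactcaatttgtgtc
The last pair shows the strongest ranked peak of daf-2 and the second strongest of sgk-1, neither of them listed at the threshold, with the 14-bp run they share in capitals. RefSeq soft-masks 100% of the first window and 87.1% of the second as repeat sequence, and the run occurs 4057 times in the genome.
daf-2, intronic peak, chrIII:3011768-3011868: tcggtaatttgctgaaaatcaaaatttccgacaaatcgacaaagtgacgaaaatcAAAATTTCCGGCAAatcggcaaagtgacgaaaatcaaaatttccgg
sgk-1, intronic peak, chrX:16259772-16259872: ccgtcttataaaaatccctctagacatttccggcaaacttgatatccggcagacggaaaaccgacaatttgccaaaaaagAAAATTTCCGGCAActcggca
Among the 153 pairs of the 18 windows compared in this way, the longest shared run had a median of 7 bp and a 95th percentile of 8 bp. The comparison left out the windows of 3 of the 6 conservative summits of these genes, both at daf-16 and the one in the 3′ UTR of par-5. The runs were picked for their length after the windows had been read, so they describe these windows only.

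The lists hold peaks at an irreproducible discovery rate (IDR) of 0.01 or lower, a measure of how poorly a peak's rank repeats between rankings. The conservative list of the series held 1145 peaks and the non-conservative list 1307, both pooled over the replicates, and the lists of replicates 1 and 2 held 452 and 541 peaks called from each replicate alone. The ranked lists, which have no threshold, held 87308, 113984, 43050 and 50310 peaks in the same order. Of these, 58, 64, 40 and 34 had an IDR of 0.01 or lower and yet were not in the matching thresholded list. None of them lay in the regions of the 10 genes, and the sources used here do not state why they were left out. They remain in the shares and percentiles drawn from the ranked lists. The signal value is the authors', on a scale not given in the sources used here, and it served to describe and rank peaks within a list. Read depth is unknown, so no counting interval can be given for a peak.

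A conservative summit lay in the span of the gene or the 2 kb upstream of it in 4 of the 10 genes, namely daf-16, ftt-2, par-5 and pdk-1, which held 6 summits in all. By the same rule 1061 of the 19973 protein-coding genes were called, 5.31% with a Wilson 95% interval of 5.01% to 5.63%. The non-conservative list called the same 4 genes with 7 summits, beside a background of 6.1%. In the list of replicate 2 only daf-16 and ftt-2 were called, with a background of 2.61%, and in that of replicate 1 only ftt-2, with a background of 2.39%. The genes were picked with earlier results of these data known, so 4 of 10 is given as a count beside its background, with no test. Within promoter windows, from 1000 bp upstream to 500 bp downstream of any annotated 5′ end, 2 genes were called, daf-16 and ftt-2, beside a background of 3.1%.

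Long regions hold a summit more often, and with all coding genes cut by region length into 5 classes of equal size, 7 of the 10 genes were in the longest class. The share of coding genes called was 4.01%, 3.23%, 4.26%, 6.08% and 8.99% from the shortest class to the longest. In the longest daf-16 and pdk-1 were called and daf-2, age-1, akt-2, daf-18 and sgk-1 were not, which is 2 of 7. The called 14-3-3 genes were shorter, par-5 with a region of 3419 bp in the second class and ftt-2 with one of 3712 bp in the third. Of the 140 coding genes with a region of 25 kb or more, daf-16 and daf-2 among them, 18 were called, 12.9% with a Wilson 95% interval of 8.29% to 19.4%.

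**Figure D1:**
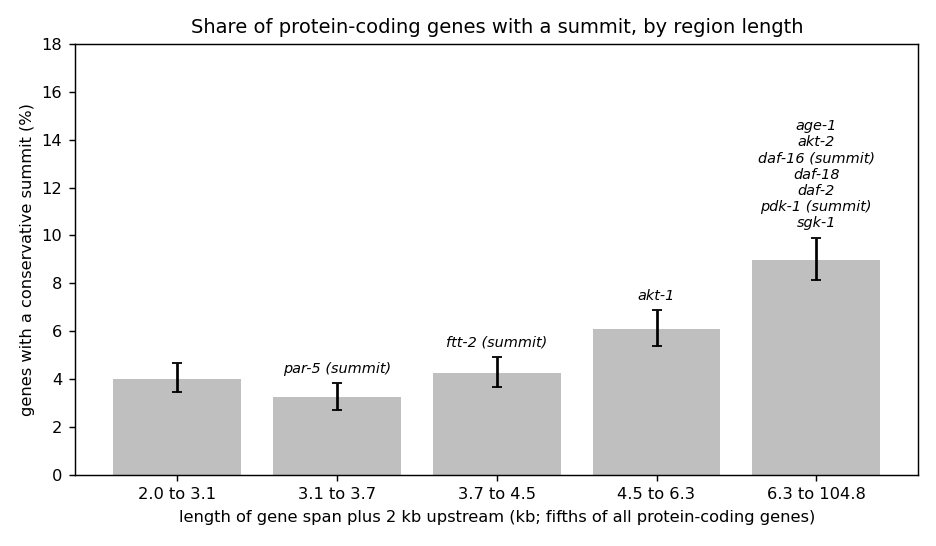
Percentage of protein-coding genes with a conservative SAEG-2 summit in the gene span or the 2 kb upstream, by class of region length in kb. Bars are shares with Wilson 95% intervals as error bars, and the 10 insulin signalling genes are written above their class, with the word summit beside the 4 that were called. The share runs from 3.23% in the second class to 8.99% in the longest, which holds 7 of the 10 genes.

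The 14-3-3 gene ftt-2 had the strongest peak within the regions of the 10 genes. The gene lies on the minus strand of chromosome X at 11603708 to 11605419, with 2 annotated 5′ ends only 7 bp apart. Its main peak was at chrX:11605875-11605966 with its summit 532 bp upstream of the outermost 5′ end. The pooled signal was 217, rank 74 of 1145 in the conservative list and so at percentile 93.6, with an IDR of 2.94e-05. Replicate 1 gave 99.2 and replicate 2 gave 115, each rank 76 in its own list of 452 and 541 peaks. Both replicates listed this peak, as they did no other in the regions of the 10 genes, and their summits lay 539 and 532 bp upstream.

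The ratio of replicate 2 to replicate 1 at this peak was 1.16, against a median of 1.13 and an interquartile range of 0.951 to 1.35 over 1129 conservative peaks. The summit falls in the annotated noncoding RNA gene F52D10.7, and the nearest 5′ end of another coding gene, F52D10.4, is 11519 bp away. The peak interval is 92 bp wide where the usual width in this list is 304 bp.

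A second ftt-2 peak, at chrX:11606005-11606308 with its summit 738 bp upstream in the noncoding RNA gene F52D10.9, was at the edge of the threshold. Its pooled signal was 58.7, rank 1066 of 1145, with an IDR of 0.00976 in the conservative ranking and 0.414 in the non-conservative one, so it was in the first list and not in the second. This second interval lay within 100 bp of the main peak. The main peak's listed intervals in replicates 1 and 2, chrX:11605818-11606097 and chrX:11605811-11606090, ran into it. Replicate 1 had no summit within the second interval. Replicate 2 had a ranked peak of 31.8 with its summit inside the interval, with an IDR of 0.828.

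The other 14-3-3 gene, par-5, known for its part in polarity of the early embryo, had weaker peaks that neither replicate listed. It lies on the minus strand of chromosome IV at 11820506 to 11821924 and has 3 annotated 5′ ends. The conservative peak, chrIV:11820364-11820667, had its summit in the 3′ UTR of par-5, 1408 bp downstream of the outermost 5′ end. Its pooled signal was 73.4, rank 995 of 1145, with an IDR of 0.00681, and the replicates gave 41.3 and 38.1. A peak at the other end of the gene, chrIV:11821936-11822239, whose window is printed above, had a higher pooled signal of 87.2. It passed the threshold in the non-conservative ranking, with an IDR of 0.00868, and missed it in the conservative one, with 0.0200.

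This upstream par-5 summit lay 164 bp upstream of par-5 and 118 bp upstream of the divergent gene M117.3, inside the noncoding RNA genes M117.11 and M117.12. The replicates gave 28.2 and 51.4. Both par-5 summits also fall in the region of M117.3, so the lists do not tell which of these genes a peak belongs to.

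At daf-16, the FOXO gene at the end of the pathway, 2 conservative peaks lay around its first exons. The gene runs from 10750498 to 10776703 on the plus strand of chromosome I, with 11 transcripts and 7 annotated 5′ ends spread over 22501 bp. The stronger peak, chrI:10752043-10752346, was intronic, with its summit 1697 bp downstream of the outermost 5′ end and 1235 bp downstream of the third, and 10908 bp upstream of the fourth. Its pooled signal was 119.6, rank 323 and percentile 71.9 of the conservative list. Replicate 1 gave 61.6 with an IDR of 0.0291, not listed, and replicate 2 gave 77.1 with an IDR of 0.000474, listed. Within the gene span and the 2 kb upstream, daf-16 thus had a listed peak in replicate 2 alone.

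The second daf-16 peak, chrI:10749908-10750211, had its summit 438 bp upstream of the outermost 5′ end, in the overlapping noncoding RNA genes H36N01.1 and H36N01.4. The pooled signal was 97.8, rank 563 of 1145, and the replicates gave 39.3 and 57.4, listed in neither. This was the only conservative summit of the 10 genes whose window held GTAAACA, the core of the DAF-16 binding element. The motif was in 1.40% of the windows of all conservative peaks. These peaks lie nearest the third and the first 5′ end, and no listed summit lay further along the gene. There the ranked peak with the highest signal was one of 67.5 in the 3′ UTR, with an IDR of 0.191 in the pooled conservative ranking. It was not the best there by IDR. In that ranking 8 of the 44 ranked peaks of daf-16 had an IDR of 0.05 or lower. These 8 include both listed peaks, and some of the others lay further along the gene. In replicate 1 this 3′ UTR peak had a signal of 47.6 and an IDR of 0.0175, above the upstream peak in signal and ahead of both listed peaks in IDR.

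The strongest peak near daf-16 was outside the region used for the counts. At chrI:10777364-10777667, with its summit 813 bp past the 3′ end, it had a pooled signal of 218, rank 73 of 1145, and was listed in both replicates, with 79.1 (rank 147 of 452) and 139 (rank 49 of 541). Its nearest coding 5′ ends were the last one of daf-16, 4517 bp away, and that of gpx-8, 5374 bp away, and it lay in the region of no coding gene. By the nearest 5′ end this peak goes to daf-16, and the count of summits for the 10 genes is then 7.

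**Figure D2:**
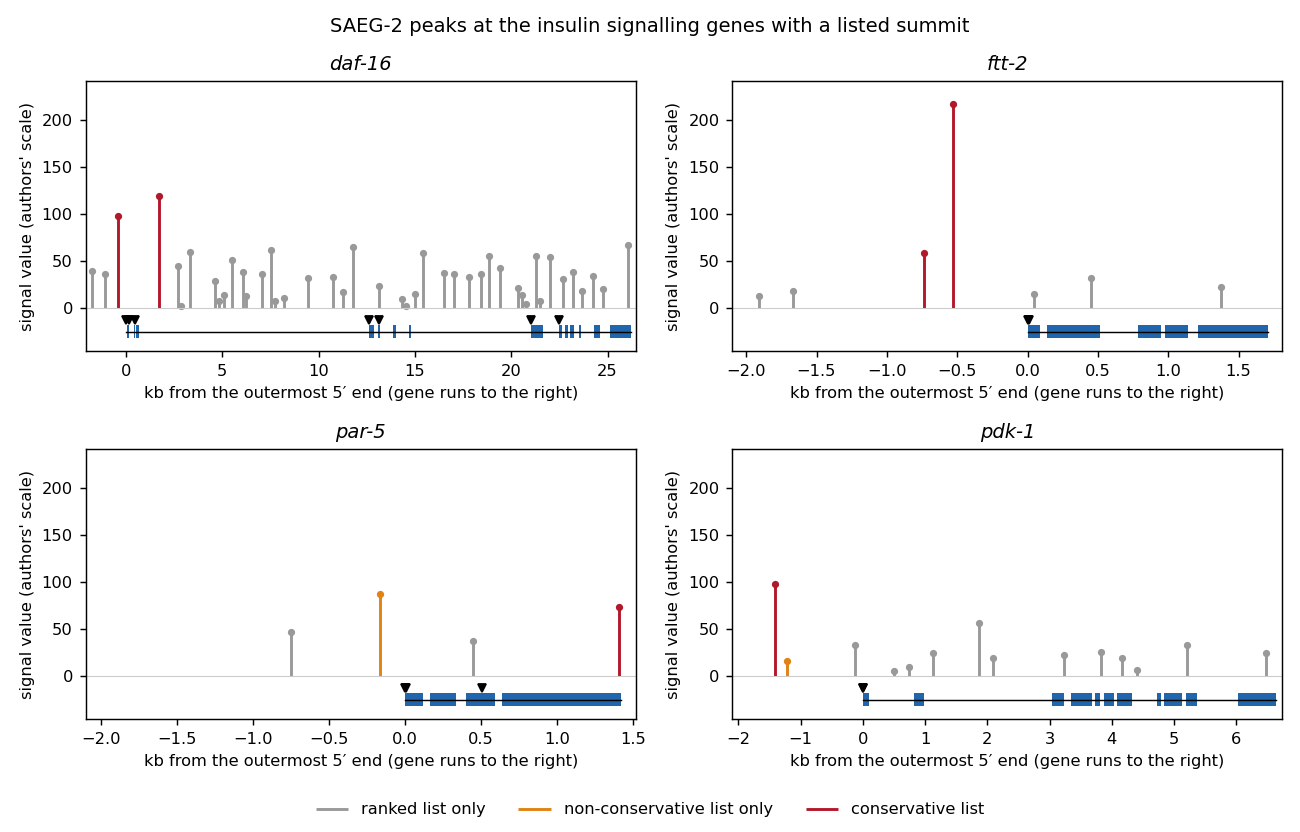
Signal value of each ranked pooled peak (authors' scale) against the distance of its summit from the outermost 5′ end in kb, for daf-16, ftt-2, par-5 and pdk-1. Red stems are conservative peaks, orange stems peaks of the non-conservative list alone and grey stems peaks in the ranked list alone; blue boxes are exons and black triangles annotated 5′ ends. The ftt-2 peak of 217 is the tallest, and daf-16 has 2 red stems among 44 ranked peaks.

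Upstream in the pathway, the receptor gene daf-2 had no listed summit. It has the longest region of the 10 genes, 48333 bp on the minus strand of chromosome III, with 48 ranked peaks and 7 annotated 5′ ends. Its strongest ranked peak was the intronic one in repeat sequence shown above, chrIII:3011666-3011969, with its summit 1350 bp upstream of the sixth 5′ end. Its pooled signal was 80.8 with an IDR of 0.104 in the conservative ranking and 0.0144 in the non-conservative one, just outside the threshold of 0.01. The replicates gave 23.5 and 41.5, and in replicate 1 another intronic daf-2 peak was the strongest, with 28.5. The nearest conservative summit to any daf-2 5′ end was 34574 bp away. Of all conservative windows, 3.14% were soft-masked over more than 80% of their length.

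The genes for the enzymes that make and remove the lipid signal were the weakest. At age-1, the catalytic kinase subunit, the strongest of 12 ranked peaks had a pooled signal of 40.9 and an IDR of 0.408, in a coding exon. Replicate 1 gave 20.4 there and replicate 2 had no summit within it. The strongest peak of age-1 stood at percentile 27.2 among the strongest peaks of genes in its length class, whose median was 48.7. At daf-18 the strongest of 5 ranked peaks had 48.8 and an IDR of 0.273, in a coding exon 4532 bp downstream of the 5′ end, with 25.4 and 21.3 in the replicates. That is percentile 50.3 of the same class.

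The kinase gene pdk-1, whose product phosphorylates the AKT kinases, was the only kinase gene called. It lies on the plus strand of chromosome X at 1321344 to 1327986. Its conservative peak, chrX:1319782-1320085, was intergenic with its summit 1410 bp upstream, and the next coding 5′ end, that of H42K12.3, was 8326 bp away. The pooled signal was 98.0, rank 556 of 1145, with an IDR of 0.00296, and the replicates gave 51.6 and 40.6, listed in neither. The call needs more than 1 kb of upstream sequence. An overlapping peak of signal 15.5, 1211 bp upstream, was in the non-conservative list alone, with an IDR of 0.00219 there and 0.841 in the conservative ranking. Such weak neighbours were found elsewhere: 68 of the 1307 non-conservative peaks, 5.20%, lay within 100 bp of a stronger listed peak. Their median signal was 11.8 against 92.1 for that list. In the conservative list there were 76 of 1145, 6.64%, with a median signal of 11.2 against 96.9.

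The remaining kinase genes, akt-1, akt-2 and sgk-1, which act on DAF-16 or beside it, had no listed summit. At akt-1 the strongest ranked peak, in a coding exon 2030 bp downstream of the outermost 5′ end, had 58.0 and an IDR of 0.201, with no summit within it in replicate 1 and 32.0 in replicate 2. An akt-1 peak 1698 bp upstream, in the noncoding RNA gene C12D8.25, was of like height at 57.5 and ranked better, with IDRs of 0.0885 and 0.0294 in the 2 rankings, and 33.5 and 26.0 in the replicates. At akt-2 the strongest was intronic, with 53.9 pooled and 26.6 and 23.5 in the replicates, and an IDR of 0.192. An upstream akt-2 peak of 51.7 pooled was the strongest in replicate 2, with 38.1 at 1703 bp upstream. Replicate 1 had no summit in that upstream peak. At sgk-1 the strongest was in a coding exon, with 54.3 pooled and 24.7 and 27.6 in the replicates, and an IDR of 0.143. The intronic sgk-1 peak in repeat sequence shown above, of 50.4 pooled, was the strongest in replicate 1 at 35.6. Replicate 2 had no ranked peak there. These are all below the lowest member peak in the conservative list, 58.7 at ftt-2. That value is not a cutoff, as the lowest signal in the list was 2.06. The nearest conservative summit was 93057 bp from a 5′ end of akt-1, 59246 bp from akt-2 and 9220 bp from sgk-1.

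**Figure D3:**
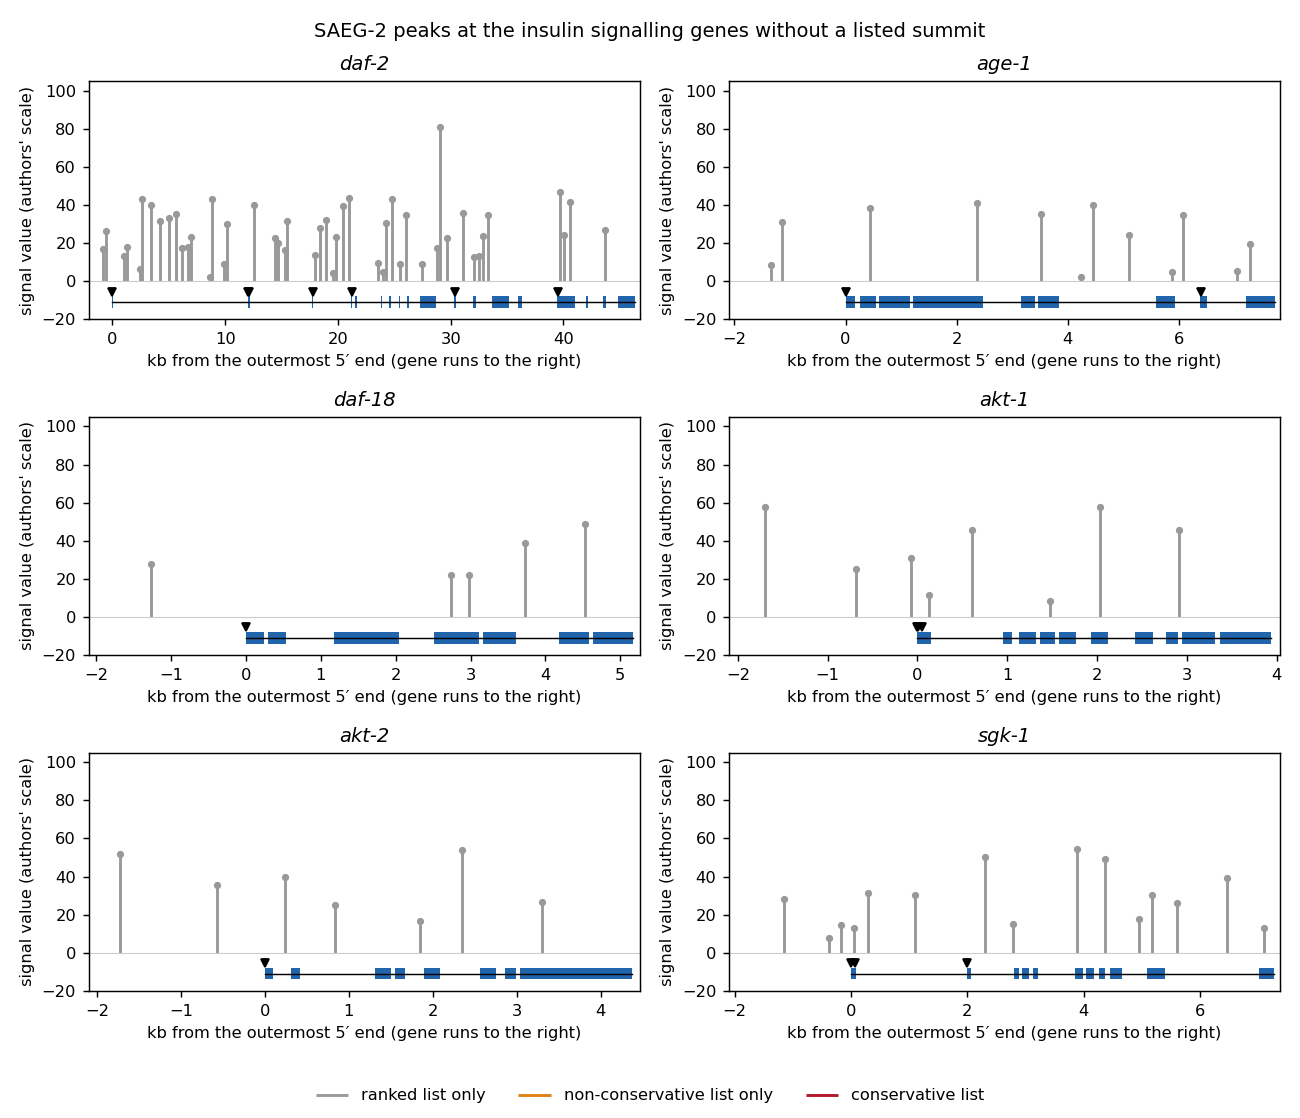
Signal value of each ranked pooled peak (authors' scale) against the distance of its summit from the outermost 5′ end in kb, for the 6 genes with no listed summit, drawn as for the called genes but with the vertical axis ending near 100. Every stem is grey, that is, in the ranked list alone. The tallest is the intronic daf-2 peak of 80.8, and the tallest of age-1 reaches 40.9.

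Ordered by their strongest ranked peak in the pooled data, the genes were ftt-2 (217), daf-16 (119.6), pdk-1 (98.0), par-5 (87.2), daf-2 (80.8), akt-1 (58.0), sgk-1 (54.3), akt-2 (53.9), daf-18 (48.8) and age-1 (40.9). In replicate 1 the strongest peaks ran from 99.2 at ftt-2 and 61.6 at daf-16 to 21.4 at age-1, and in replicate 2 from 115 and 77.1 to 24.3. The first and second places and the last place were held by the same genes in both replicates. The order between them was not: pdk-1 stood above par-5 in replicate 1 (51.6 and 41.3) and below it in replicate 2 (40.6 and 51.4), and daf-2, akt-1, sgk-1 and akt-2 also changed places. The par-5 value is that of its 3′ UTR peak in replicate 1 and of its upstream peak in replicate 2. At daf-2, akt-1, sgk-1, akt-2, daf-18 and age-1 the strongest peak was also a different one in each replicate. For these genes the order compares regions and not single sites. At daf-2 the strongest peak had 28.5 in replicate 1, below sgk-1 (35.6) and akt-1 (33.5), and 41.5 in replicate 2, above pdk-1. The order in the middle was thus not the same in both replicates. No spread between replicates can be read from it, as most values come from different peaks and each list has its own scale. Against genes of their own length class, the strongest peaks of ftt-2, par-5 and daf-16 were at percentiles 99.7, 97.7 and 97.0, those of pdk-1 and daf-2 at 94.9 and 91.9, and that of akt-1 at 83.6. The strongest peaks of sgk-1 and akt-2 were at 64.4 and 63.3, nearer the middle of their class. The longest class runs from 6321 to 104756 bp, and only 0.0501% of coding genes have a longer region than daf-2 and 0.461% than daf-16, so for these genes the class is not matched on length.

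**Figure D4:**
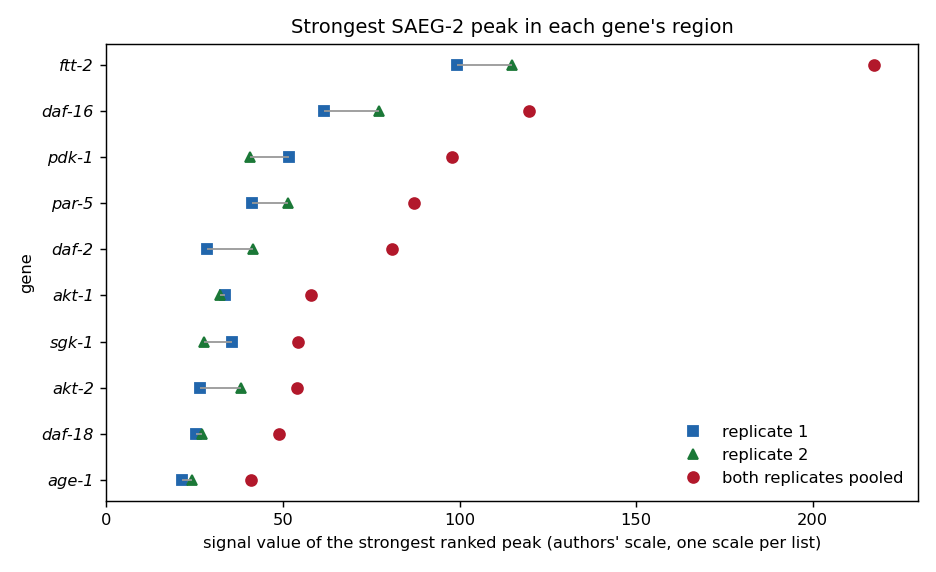
Signal value of the strongest ranked peak in each gene's region (authors' scale, separate for each list) in replicate 1 (blue squares), replicate 2 (green triangles) and both pooled (red circles). Genes are ordered by the pooled value and grey lines join the replicates. The joined points belong to the same peak at ftt-2, daf-16 and pdk-1 alone. Only ftt-2 and daf-16 exceed 60 in both replicates, and age-1 is lowest in all 3 lists.

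The 6 conservative summits of the 10 genes were unlike in setting. In 3 the summit was in an annotated noncoding RNA exon, a class with 11.4% of all conservative summits, 1 was intergenic (48.1%), 1 intronic (25.6%) and 1 in a 3′ UTR (1.75%). Those 3 include both of the neighbouring ftt-2 peaks. A short set of motifs was searched on both strands of the same windows by their letters. The first, GTAAACA, is described above at daf-16. The DAF-16-associated element, CTTATCA, was in none of the 6 windows and in 3.93% of all conservative windows. The GATA core, GATAA, which is contained in the reverse complement of the element just named, was in 2, those of pdk-1 and of the 3′ end of par-5, against 19.0% of all windows. The hexamer GAGAGA was in 1, the intronic one of daf-16, against 17.6%. The counts depended on the window. In the whole peak intervals GTAAACA was in 1 of the 6 (4.10% of all conservative peaks), CTTATCA in 1 (9.26%), GATAA in 3 (45.0%) and GAGAGA in 2 (37.4%). In windows of 51 bp GTAAACA and GAGAGA were in 1 each (0.524% and 9.26%), and CTTATCA and GATAA in none (1.57% and 8.56%). A match in so few windows is a description of those windows.

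Of 84 other genes of the pathway, 7 had a conservative summit in their region, 8.33%, beside a background of 5.31% that is not matched on region length. These genes too were chosen with earlier results of these data known, so the share is given with no test. Among 39 genes for insulin-like ligands 1 was called, ins-39, with a pooled signal of 154 at 626 bp upstream and both replicates listed, at 69.8 and 80.1. This ins-39 peak was also the listed summit of replicate 1 nearest to pdk-1, 23656 bp from it. Of the other 45 genes 6 were called. The phosphatase subunit gene pptr-1, whose product acts on AKT-1, had 137 at 1411 bp upstream, listed in replicate 1 at 74.2. The nuclear receptor gene daf-12 had intronic peaks of 119.6 and 28.6, the first listed in replicate 2 at 74.6. The glyoxylate cycle gene icl-1 had 97.8 in a coding exon, shared with srh-2 and listed in replicate 1 at 61.2. The gene of the DAF-16 cofactor SMK-1 had 86.8 at 1312 bp upstream, shared with vps-60. The stress protein gene lea-1 had 86.5 and 75.7, and math-33, which encodes a deubiquitinase of DAF-16, had 76.4, none of these last 3 genes being listed in a replicate. The math-33 peak and the weaker daf-12 peak were in the conservative list and not in the non-conservative one. The non-conservative list called 6 of the 84 genes, 7.14%, beside a background of 6.1%.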

How the data were processed

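Chromatin immunoprecipitation and sequencing of tagged SAEG-2 was done on 2 biological replicates of L4 larvae. The authors deposited narrowPeak lists on ce11, the same sequence as WBcel235. In them each peak has a score, capped at 1000 by the authors, a signal value on a scale that is not stated, and a summit, and the ranked lists give a deposited −log10 of the IDR, capped at 5. The series lists pool both replicates and each replicate's lists use its own alignments. The sources used here do not name the aligner or the caller, and read depth is unknown. Each list was also made with a further file of unstated kind, possibly a control, which was not analysed here.

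Peaks were assigned by summit to gene spans plus 2 kb upstream (Ensembl release 115, RefSeq sequence) with Python 3.11.15 and pandas 2.3.3, checked on simulated peaks. Replicate values are those of the overlapping ranked peak whose summit lies nearest. For the replicate ratio over all conservative peaks the strongest overlapping ranked peak was taken instead. At the main ftt-2 peak both rules give the same peak. Shares have Wilson 95% intervals. All 10 genes are named, and of the other 84 those with a summit. With 1 group no test between groups was made. The 10 genes and the other lists were chosen with earlier results of these data known. The 11 alternative settings are given in the closing section.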

Additional observations from a re-analysis of the deposited data

How the results depend on the processing

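Of 44 comparisons of the 4 counts and shares with an alternative setting, 23 stayed within 1.5 times of the reported value and 21 moved. With each replicate's own list in place of the pooled one, the genes called fell to between 1 and 2, their summits to between 1 and 2, the share of coding genes to between 2.39% and 2.61%, and the other pathway genes to between 2 and 3. Those lists hold 452 and 541 peaks in place of 1145, and ftt-2 was called in both. Without upstream sequence the values were 2 genes, 2 summits, 1.89% and 4 others, and in promoter windows 2 genes, 3 summits, 3.1% and 3 others. With 5 kb upstream the share was 8.22%. With the upper part of the list by signal, at or above its median, the share was 2.93% and 4 others were called. At an IDR of 0.05 in the ranked list 13 summits were found, 8 of them at daf-16, still in 4 genes, with a share of 9.88%. The cause of the moves was not tested. With 2 replicates and unknown depth, a gene without a listed summit cannot be called unbound.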

Other observations

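Base composition differed among the summits of the 10 genes. The windows 50 bp to either side of the summits of all conservative peaks had a median GC content of 48.5%, against 35.4% for the genome. The pdk-1 window had 63.4%, the windows of ftt-2 54.5% and 51.5%, those of daf-16 50.5% and 40.6%, and the 3′ window of par-5 33.7%. A tRNA gene lay within 100 bp of 11.4% of all conservative summits and of none of those 6, where the nearest was 39526 bp away. Past the 3′ end of ftt-2 the non-conservative list alone had peaks of 62.5 and 23.1, at 293 and 53 bp.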
